A study of Rattus norvegicus with 18 samples.

Results

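The 8 genes described here, Drd1, Drd2, Adora2a, Ppp1r1b, Penk, Pdyn, Tac1 and Rgs9, mark the projection neurons of the striatum, and they were followed in RNA from rat brain cortex. They were chosen by name from the array, as every non-control probe whose gene name or transcript accession belongs to one of them, among 15502 named genes on the array. The rule found 10 probes, because Adora2a and Penk have 2 probes each, and the rule itself uses no measured value, though the genes were chosen with earlier results of these data known. Each RNA came from a male rat of strain Crl:CD(SD)BR weighing 250 to 280 g and was hybridized to its own 1-colour array. Ischemic rats given erythropoietin (EPO), ischemic rats given saline and sham-operated rats formed 3 groups at 6 h and 3 groups at 2 h after occlusion of the middle cerebral artery (MCAO), with 3 rats in each. The labels give the treatment of the shams as none and do not say whether they were injected, so a difference between saline-treated ischemic rats and shams may hold an injection as well as the occlusion. The animals' age and the dose of EPO are not in the labels used here.

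Projection neurons make up most of the striatum, the input station of the basal ganglia, which lies beneath the cortex. One class of them carries the dopamine receptor Drd1 and the peptide precursors Tac1 (substance P) and Pdyn (dynorphin), and sends its axons directly to the output nuclei. The other carries the dopamine receptor Drd2, the adenosine receptor Adora2a and Penk (enkephalin). Ppp1r1b (DARPP-32), an inhibitor of protein phosphatase 1, and Rgs9, a brake on G-protein signals, occur in both. These genes are not unique to striatum: cortical neurons express several of them at lower levels. The array cannot show which region or cell a transcript came from.

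Levels below are log2 signal minus the array's own 75th percentile. A change is a log2 difference between group means ± the standard error of a limma model over all 18 arrays. It was called where its adjusted p (Benjamini-Hochberg over 28634 probes tested) was under 0.05. All 10 probes were tested, and 9 of them were well above background on all 18 arrays and saturated on none, so the filter on dim probes did not shape their values. The exception was the second Penk probe, A_44_P497807, above background on 14 arrays. Where a gene has 2 probes the brighter one stands for it, and levels of different probes are not compared with each other.

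RefSeq (GRCr8) held a promoter for 5 of the 8 genes, Drd1, Drd2, Pdyn, Tac1 and Rgs9, and Penk, Adora2a and Ppp1r1b were not matched. The 250 bases before the start site are shown, 5′ to 3′, for a peptide precursor of the direct pathway with a cyclic AMP half-site, for the other such precursor and for a receptor of the indirect pathway. Tac1 lies at chr4:36645333-36645582 on the plus strand, Pdyn at chr3:137366504-137366753 on the minus strand and Drd2 at chr8:58605153-58605402 on the plus strand. Capitals mark the cyclic AMP half-site TGACG, the TATA box letters TATAAA and the GC box letters GGGCGG. Each was searched on both strands, and 1 written for the other strand appears as its reverse complement.
Tac1: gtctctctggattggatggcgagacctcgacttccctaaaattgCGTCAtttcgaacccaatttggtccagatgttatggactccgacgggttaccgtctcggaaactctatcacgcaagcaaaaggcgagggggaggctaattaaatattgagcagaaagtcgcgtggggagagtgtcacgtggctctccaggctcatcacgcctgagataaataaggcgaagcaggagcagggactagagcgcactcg
Pdyn: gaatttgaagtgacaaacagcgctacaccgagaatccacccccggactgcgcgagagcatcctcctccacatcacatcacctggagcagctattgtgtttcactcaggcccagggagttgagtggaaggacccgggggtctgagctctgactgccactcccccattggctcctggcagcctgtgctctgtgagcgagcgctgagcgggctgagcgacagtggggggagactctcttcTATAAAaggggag
Drd2: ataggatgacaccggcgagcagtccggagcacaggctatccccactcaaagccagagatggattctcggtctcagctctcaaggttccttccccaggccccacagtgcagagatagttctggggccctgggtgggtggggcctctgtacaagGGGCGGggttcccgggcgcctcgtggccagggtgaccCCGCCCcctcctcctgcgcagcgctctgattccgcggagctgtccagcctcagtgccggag
The half-site TGACG occurred in 1 of the 5 promoters, that of Tac1, 206 bases before the start, and in 18.2% of 33469 rat promoters of this length. The full cyclic AMP response element TGACGTCA, which contains TGACG, occurred in none of the 5 and in 1.59% of all, and the AP-1 motif TGACTCA in none of the 5 and in 4.05% of all. TATAAA occurred in 1 of the 5, 13 bases before the start of Pdyn, against 12.9% of all promoters. GGGCGG occurred in 2 of the 5, Drd2 and Rgs9, against 30.5% of all. The Drd1 window held none of these motifs, and whether it lies before the gene's first exon is uncertain. These are matches of letters in a window and show no binding.

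Array quality touches several results and is given first. The slope of signal on spike-in concentration was between 0.914 and 0.941 on 6 arrays, with 61.5% to 66.4% of probes above background, and between 0.788 and 0.866 on the other 12, with 68.6% to 80.6%. The 6 steep arrays were replicate 3 of EPO at 6 h, replicates 1 and 3 of saline at 6 h, and replicate 1 of sham at 6 h, EPO at 2 h and saline at 2 h. The arrays filled 5 slides scanned on 2 days, and the fifth slide, scanned on the second day, held steep arrays from 4 groups. Replicate 1 of the 2 h shams had the lowest slope of all, 0.788. Markers of cortical projection neurons were present: 11 of 11 tested were well above background on all 18 arrays.

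At 6 h, 8 of 8 markers were higher in ischemic cortex than in sham cortex, with EPO as well as with saline. With EPO 7 of the 8 were called and with saline 3, against 6.53% and 4.79% of all tested probes called higher in these comparisons. The median change of the 8 genes was 0.79 with EPO and 0.63 with saline, while over 12427 genes it was -0.01 and -0.09. The 2 comparisons share the sham arrays. In bulk RNA, more cells of a type and more RNA per cell cannot be told apart.

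**Figure D1:**
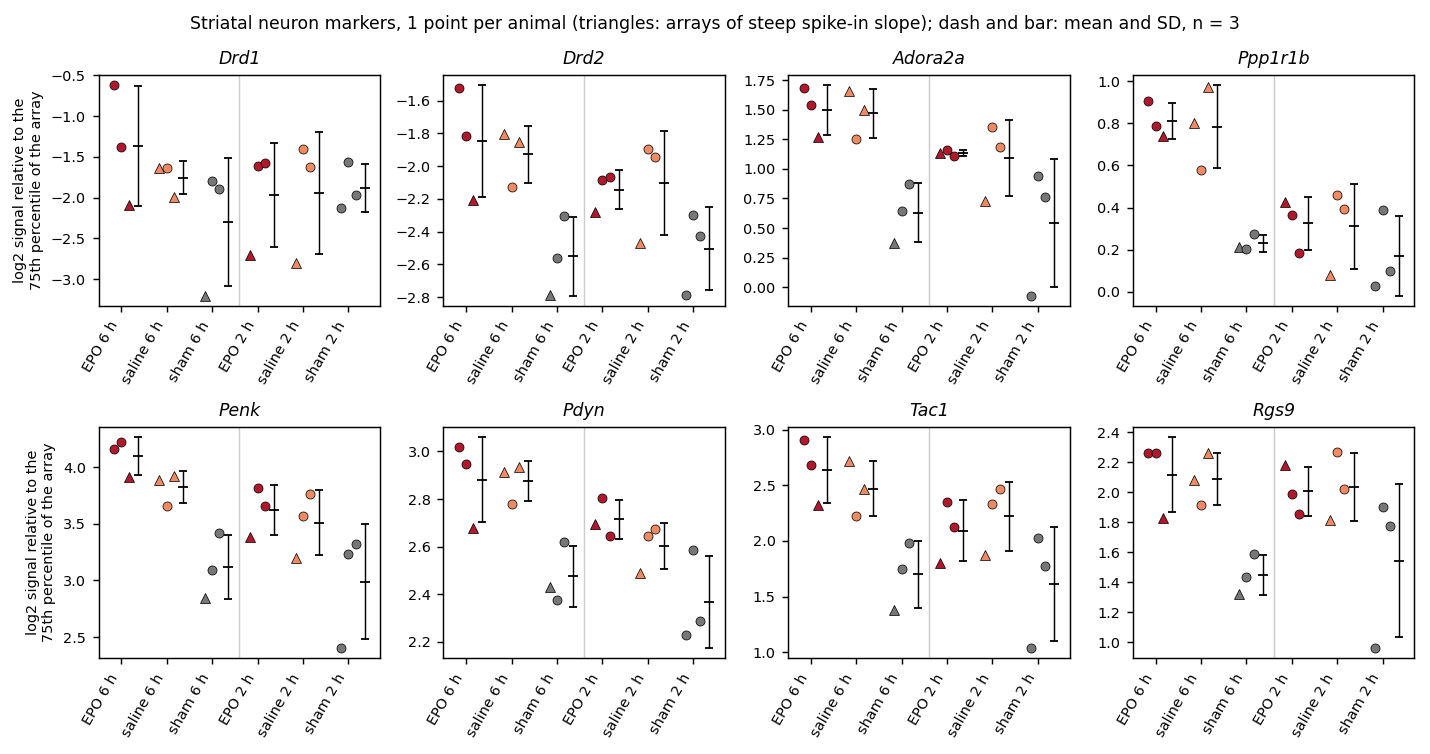
Log2 signal minus the array's 75th percentile for the brighter probe of each gene, 1 point per rat, with EPO, saline and sham from left to right at 6 h and then at 2 h (triangles, arrays of steep spike-in slope; dash and bar, mean and SD, n = 3). For 7 of the 8 genes every ischemic rat at 6 h lies above every 6 h sham.

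Among the receptors, Adora2a, the adenosine receptor that opposes Drd2 in indirect-pathway neurons, was measured by 2 probes. At 6 h its brighter probe, A_44_P1034950, read 1.68, 1.54 and 1.27 in EPO rats, 1.66, 1.25 and 1.50 in saline rats and 0.37, 0.65 and 0.87 in shams. All 6 ischemic rats lay above the 3 shams. The rise was called in both comparisons, at 0.87 ± 0.24 with EPO (adjusted p = 0.0238) and 0.84 ± 0.24 with saline (adjusted p = 0.0372), or 1.82-fold and 1.79-fold. The second probe, A_42_P664121, followed the first over the 18 arrays (r = 0.91) and differed by 0.78 and 0.89, without a call in either comparison (adjusted p = 0.108 and 0.0834).

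Drd2, the inhibitory dopamine receptor, read -1.52, -1.82 and -2.21 in EPO rats at 6 h, -1.80, -2.13 and -1.85 in saline rats and -2.79, -2.56 and -2.31 in shams. The ischemic rats again did not overlap with the shams, but the gap between the lowest EPO rat and the highest sham was small. The rise was called with EPO, at 0.70 ± 0.20 (adjusted p = 0.0284), and the difference of 0.62 ± 0.20 with saline was not (adjusted p = 0.063). Drd1, the stimulatory dopamine receptor of the direct pathway, behaved less uniformly. It read -0.62, -1.38 and -2.09 in EPO rats, -1.64, -1.64 and -1.99 in saline rats and -3.20, -1.80 and -1.89 in shams. Both ischemic groups overlapped with the shams, and neither difference was called (0.93 ± 0.48, adjusted p = 0.234, with EPO; 0.54 ± 0.48, adjusted p = 0.558, with saline). Drd1 had the widest spread within groups, a residual SD of 0.61 against 0.25 for Drd2 and 0.30 for Adora2a. Its lowest values of the 18 arrays were -3.20 (sham at 6 h), -2.80 (saline at 2 h) and -2.70 (EPO at 2 h), each on a steep array. The other steep arrays read -1.64 and -1.99 (saline at 6 h) and -2.09 (EPO at 6 h). Leaving out 1 array, the Drd1 difference with saline at 6 h ran from 0.089 to 0.79. Over the 10 spots of the Drd1 probe the median SD within an array was 0.077.

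Among the peptide precursors, Penk, which yields the enkephalins, read 4.16, 4.22 and 3.91 in EPO rats at 6 h, 3.89, 3.66 and 3.92 in saline rats and 2.85, 3.10 and 3.41 in shams on probe A_42_P749184. No ischemic rat overlapped with a sham. The rise with EPO was the largest called change of the 8 genes in either comparison, 0.98 ± 0.23 (1.97-fold, adjusted p = 0.0107), and the difference with saline, 0.70 ± 0.23, was not called (adjusted p = 0.0685). The dim second probe did not follow the first over the 18 arrays (r = -0.07). It differed by 0.86 ± 0.77 with EPO and -0.39 ± 0.77 with saline (adjusted p = 0.588 and 0.778), so the rise of Penk rests on 1 probe.

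Tac1, the precursor of substance P and neurokinin A, read 2.90, 2.68 and 2.32 in EPO rats, 2.72, 2.23 and 2.46 in saline rats and 1.38, 1.75 and 1.98 in shams at 6 h. No ischemic rat overlapped with a sham, while EPO and saline rats overlapped, and the lowest sham was replicate 1, on a steep array. The rise was called with EPO (0.94 ± 0.26, adjusted p = 0.0264), and with saline the difference was 0.77 ± 0.26 (adjusted p = 0.0795). Pdyn, the precursor of the dynorphins, moved least of the 8 genes but with little spread. It read 3.02, 2.95 and 2.68 in EPO rats, 2.91, 2.78 and 2.94 in saline rats and 2.43, 2.38 and 2.62 in shams. Its rise was called in both comparisons, 0.41 ± 0.11 with EPO (adjusted p = 0.023) and 0.40 ± 0.11 with saline (adjusted p = 0.0329).

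Among the signalling proteins, Ppp1r1b, through which dopamine and adenosine receptors act on protein phosphatase 1, had the smallest adjusted p of the 8 in both comparisons. It read 0.90, 0.79 and 0.74 in EPO rats at 6 h, 0.80, 0.58 and 0.97 in saline rats and 0.21, 0.20 and 0.28 in shams, so the 3 shams lay close together and well below the others. The rise was 0.58 ± 0.12 with EPO (1.49-fold, adjusted p = 0.0061) and 0.55 ± 0.12 with saline (1.47-fold, adjusted p = 0.0118). Rgs9, which speeds the shut-off of some G proteins, read 2.26, 2.26 and 1.83 in EPO rats, 2.08, 1.91 and 2.26 in saline rats and 1.32, 1.44 and 1.59 in shams. All 6 ischemic rats lay above the 3 shams, and EPO and saline rats overlapped. The rise with EPO was called just under the threshold (0.67 ± 0.21, adjusted p = 0.0493), and the difference with saline was 0.64 ± 0.21 (adjusted p = 0.0759).

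**Figure D2:**
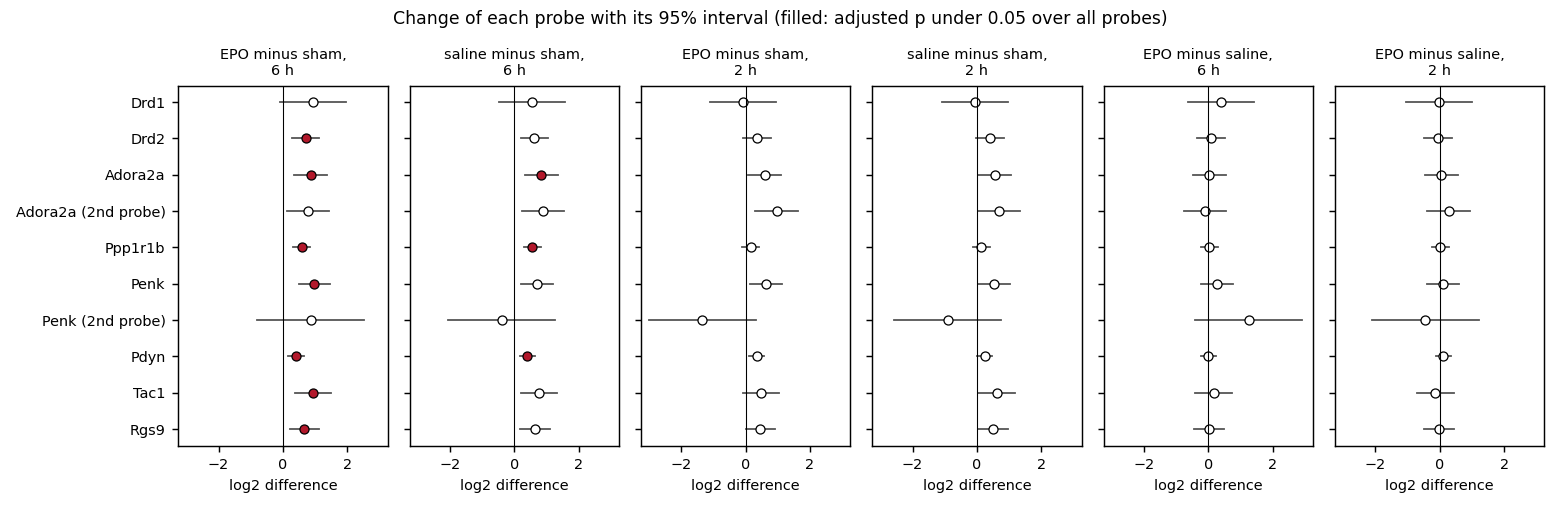
Log2 difference (point) and 95% interval (line) of each of the 10 probes in 6 comparisons, from EPO minus sham at 6 h on the left to EPO minus saline at 2 h on the right; filled points were called. Called points stand in the EPO minus sham (7) and saline minus sham (3) panels at 6 h, and in the EPO minus saline panels the intervals include 0.

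Counting probes, 8 of 10 lay above the shams without overlap in each 6 h comparison, where 11.8% (EPO) and 10.9% (saline) of all tested probes did so. The number of calls depended on single arrays and on the steep arrays. In the saline comparison it was 1 without replicate 1 or 2 of the 6 h shams or replicate 1 of saline, 0 without replicate 3 of saline and 7 without replicate 1 of the 2 h shams, which enters through the shared error. In the EPO comparison it was 2 without replicate 1 or 2 of the shams or of the EPO rats. Without the 6 steep arrays 2 genes were called with EPO (median change 0.81). Only replicate 2 of the saline rats at 6 h was then left, against replicates 2 and 3 of the shams. The median change with saline, 0.35, therefore rests on 1 saline rat. In both comparisons 8 of 8 stayed higher. In every alternative run, scalings included, 8 of 8 were higher at 6 h. Over all probes the median at 6 h was -0.13 in the saline comparison and 0.003 in the EPO comparison. Scaling by the array median moved the 2 comparisons in opposite directions, by the same amount for every probe. The median change of the 8 genes went from 0.79 to 0.62 with EPO and from 0.63 to 0.77 with saline. This scaling left 0 calls in either comparison.

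Within slides, where groups can be set against each other free of the slide, EPO was above sham for 8 of 8 genes on both slides that hold the pair (median 0.78 on slide 3 and 0.74 on slide 5). Saline was above sham for 8 of 8 on the same slides (median 0.46 and 1.01). These are 1 array against 1 array and carry no test.

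At 2 h no marker was called, with EPO or with saline, where 1.00% and 0.898% of all tested probes were called higher. With EPO 4 of 10 probes, and with saline 5, were higher at an unadjusted p under 0.05 in limma, against 5.86% and 5.05% of all tested probes. The median change of the 8 genes was 0.41 with EPO and 0.45 with saline, and 7 of 8 differences were positive. Drd1 was the exception, at -0.08 ± 0.48 and -0.06 ± 0.48. In both comparisons its sign turned under quantile normalization, scaling by the array median, each allowance for the spike-in slope and with single arrays left out, and with EPO also under either slide block and array weights.

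Penk at 2 h read 3.39, 3.82 and 3.66 in EPO rats, 3.20, 3.57 and 3.76 in saline rats and 2.40, 3.24 and 3.32 in shams, and the difference was 0.63 ± 0.23 with EPO and 0.52 ± 0.23 with saline (adjusted p = 0.264 and 0.4). Adora2a read 1.13, 1.16 and 1.11 in EPO rats, 0.73, 1.36 and 1.18 in saline rats and -0.07, 0.94 and 0.77 in shams. For both genes replicate 1 of the shams stood well below the other shams. Tac1 read 1.80, 2.35 and 2.13 in EPO rats, 1.87, 2.33 and 2.46 in saline rats and 1.04, 2.03 and 1.77 in shams. Rgs9 read 2.18, 1.99 and 1.85 in EPO rats, 1.82, 2.27 and 2.02 in saline rats and 0.96, 1.90 and 1.77 in shams. In each of these genes replicate 1 of the shams was the lowest of the 9 arrays.

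That array was the lowest of the 9 at 2 h for 7 of 8 genes and the lowest sham for all 8. Without it the median change was 0.20 with EPO and 0.22 with saline, with 0 calls in both. Over the saline rats, replicate 1, a steep array, was the lowest of its group for 8 of 8 genes. Pdyn read 2.70, 2.80 and 2.64 in EPO rats, 2.49, 2.64 and 2.67 in saline rats and 2.23, 2.59 and 2.29 in shams. Drd2 read -2.28, -2.08 and -2.06 in EPO rats, -2.47, -1.89 and -1.94 in saline rats and -2.79, -2.30 and -2.43 in shams. With EPO both lay above the shams without overlap, as did 5 of 10 probes in that comparison against 7.61% of all. With saline 0 of 10 did, against 6.67%. Ppp1r1b read 0.43, 0.37 and 0.18 in EPO rats, 0.08, 0.46 and 0.39 in saline rats and 0.03, 0.39 and 0.10 in shams, and these groups overlapped.

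An interaction term asked whether ischemia changed a marker more at one time than at the other. No marker was called in either ischemic comparison, against 1.33% of probes called higher with EPO and 0.814% with saline. The smallest adjusted p was that of Ppp1r1b, 0.235 with EPO (0.43 ± 0.17 more at 6 h) and 0.343 with saline (0.41 ± 0.17 more). Within a treatment, Ppp1r1b was higher at 6 h than at 2 h, by 0.48 ± 0.12 with EPO (adjusted p = 0.0231) and 0.47 ± 0.12 with saline (adjusted p = 0.0338), the 1 marker called in each, against 4.61% and 3.60% of all probes. Shams did not show such a call: 0 of 10 probes differed between 6 h and 2 h (0.311% of all were higher), Ppp1r1b by 0.06 ± 0.12. No probe of the 10 passed an unadjusted p under 0.05 there in limma, where 9.03% of all probes did. The interaction for EPO and the comparisons of times within ischemic groups were added to the planned ones.

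The order of the 6 group means was nearly the same for all 8 genes. The EPO group at 6 h was highest and the saline group at 6 h second for 8 of 8, and the 2 sham groups were lowest for 7 of 8. Scaling by the array median, which lowered the 6 h changes with EPO and raised those with saline, turned the top of this order for 7 of 8, with saline above EPO. Drd1 averaged -1.36 ± 0.74 in 6 h EPO rats and -2.30 ± 0.79 in 6 h shams, and its 2 h shams, at -1.88 ± 0.29 (SD, n = 3), stood above both ischemic 2 h groups. Between the neighbours at the top of this order, the ischemic groups with EPO and with saline at 6 h, no marker was called. The values of these 2 groups overlapped for every marker.

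The comparison of EPO with saline in ischemic rats asks whether the hormone changed the response. It called 0 of the 10 probes at 6 h and at 2 h, and 0% of all tested probes. At an unadjusted p under 0.05 limma passed 0 of the 10 probes at either time, and 1184 probes of all at 6 h (4.13%) and 381 at 2 h (1.33%). The median of the 8 genes was 0.06 at 6 h and -0.00 at 2 h, and several of the small differences turned in sign with the scaling or with the array left out. At 6 h the 95% interval ran from -0.24 to 0.29 for Ppp1r1b, from -0.23 to 0.24 for Pdyn, from -0.22 to 0.77 for Penk and from -0.63 to 1.42 for Drd1. For Drd1 and Penk the upper end lies above the difference between saline and sham (0.54 and 0.70), and for Penk it lies below that between EPO and sham (0.98). Within slides at 6 h EPO was above saline for 8 of 8 genes on slides 2 and 3 and below it for 8 of 8 on slide 5. On slide 2 the saline array was steep and the EPO array was not, while on slides 3 and 5 both arrays had the same slope class.

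**Figure D3:**
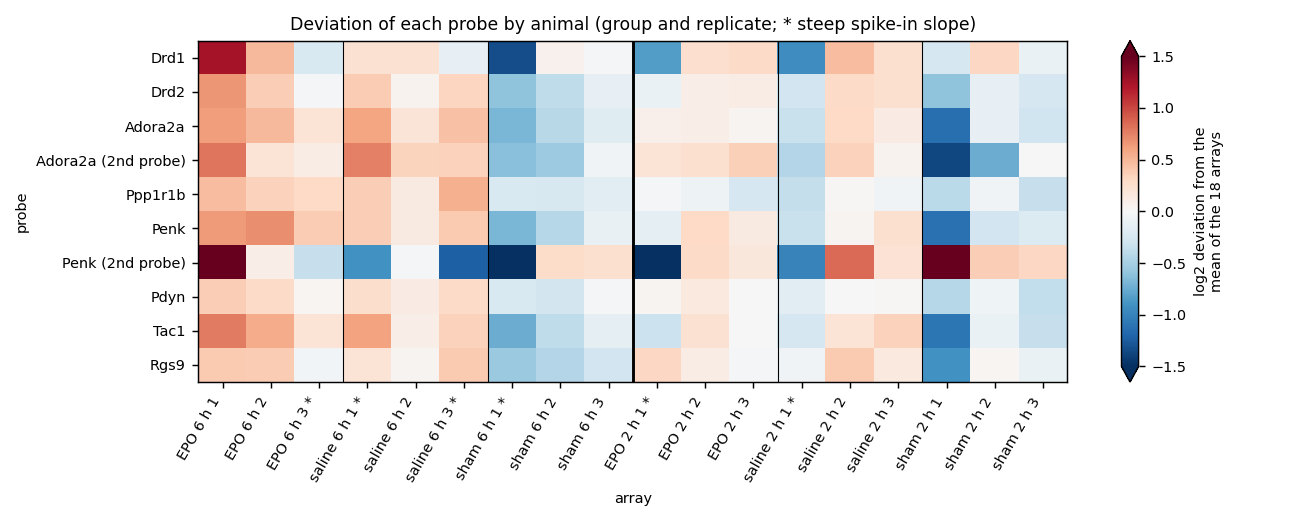
Deviation of each probe from its mean over the 18 arrays (colour, log2), with probes in rows and arrays in columns, ordered EPO, saline and sham at 6 h and then at 2 h; asterisks mark steep spike-in slopes. The columns of 2 h sham 1 and 6 h sham 1 are blue in nearly every row, and the second Penk probe does not follow the others.

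From rat to rat the markers moved together. The mean deviation of the 8 genes from their 18-array means was 0.10 to 0.65 in EPO rats at 6 h, 0.13 to 0.38 in saline rats at 6 h and -0.63 to -0.13 in 6 h shams. Replicate 1 of the EPO rats was the highest of the 9 arrays at 6 h for 5 of 8 genes, and replicate 3, on a steep array, was the lowest of the EPO group for 8 of 8. Replicate 1 of the 6 h shams was the lowest of the 9 for 6 of 8. Each gene's correlation over the 18 arrays with the mean of the other 7 ran from 0.63 for Drd1 to 0.98 for Drd2. These coefficients are descriptions, since the arrays share groups, slides and the spike-in slope.

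Among 12397 other genes, the 5 whose level was most like the mean of the 8 over the 18 arrays were Gnal (r = 0.94), Tmem158 (0.92), Zdbf2 (0.92), Slc5a7 (0.91) and Lrrc10b (0.90). Gnal is the G-protein subunit that couples dopamine and adenosine receptors to adenylyl cyclase in striatum, and Slc5a7 is the choline transporter of cholinergic neurons. Over the 12 arrays of shallow slope the coefficients of the 5 ran from 0.90 to 0.97. The gene most like each member was Nuak2 for Drd1, Tmem158 for Drd2, Lrrc10b for Adora2a, Ahi1 for Ppp1r1b and for Pdyn, Pcsk5 for Penk, Gnal for Tac1 and Rasgrp2 for Rgs9, with coefficients from 0.87 to 0.95.

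Other striatum-enriched genes were read beside the 8. Of 20 tested, 17 were higher with EPO at 6 h and 15 with saline, most of them without a call. Of the 20, 2 were called higher at 6 h with EPO, Gnal (0.68 ± 0.18, adjusted p = 0.0224) and the phosphodiesterase Pde10a (0.61 ± 0.16, adjusted p = 0.0189), and 0 with saline. Of all tested probes 6.53% were called higher with EPO and 4.79% with saline. Pde10a was named after its values had been seen. The median of the 20 was 0.23 with EPO and 0.12 with saline, against -0.01 and -0.09 over all genes. With saline Gnal was at 0.56 ± 0.18 (adjusted p = 0.0664) and the orphan receptor Gpr6 at 0.62 ± 0.20 (adjusted p = 0.0716). The transcription factors Meis2 and Foxp2 were at 0.23 ± 0.13 and -0.14 ± 0.08 (adjusted p = 0.295 and 0.33), and the lowest of the 20 with saline was at -0.66. Their correlation with the mean of the 8 markers ran from -0.53 to 0.94, the highest being that of Gnal. The difference in counts between the 8 markers and this list was not tested.

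**Figure D4:**
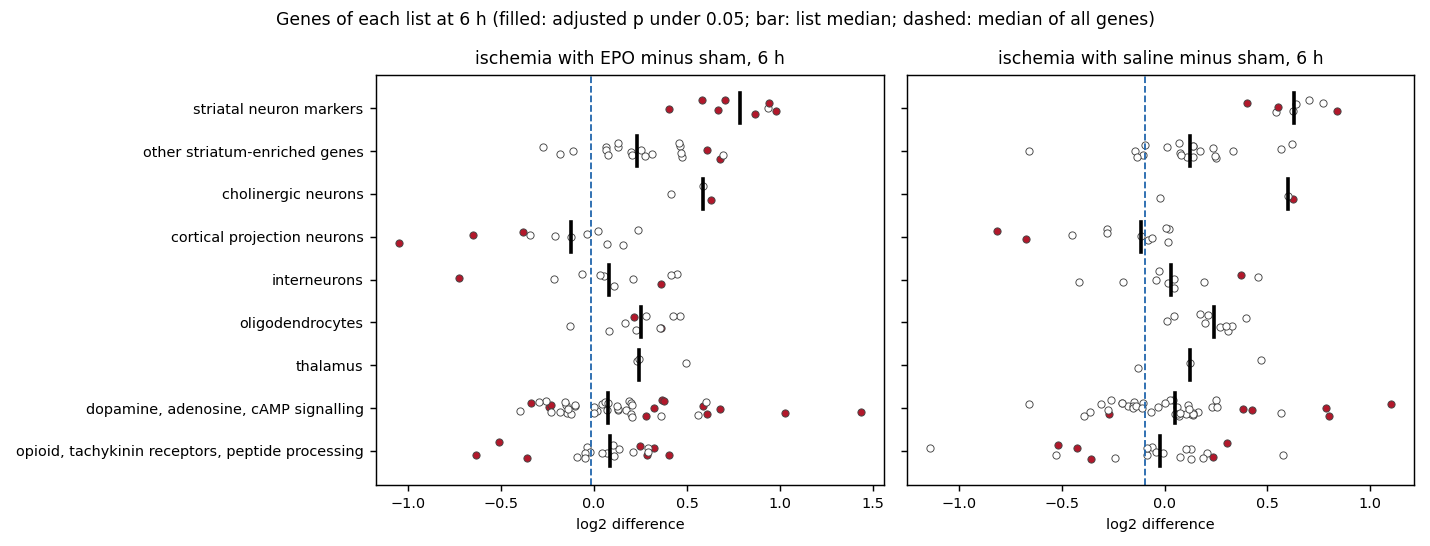
Log2 difference at 6 h of the genes of each list (points; filled, called), EPO minus sham on the left and saline minus sham on the right, with the list median as a bar and the median of all genes as a dashed line. The striatal neuron markers lie at 0.40 or above in both panels, and the medians of the other lists shown lie below theirs. The nearest is that of the 3 cholinergic genes, 0.59 with EPO and 0.60 with saline. Choroid plexus is not shown.

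Markers of other cells were read beside the result, at 6 h, where 6.53% of all tested probes were called higher with EPO and 4.79% with saline. Of 3 cholinergic genes Slc18a3, the vesicular acetylcholine transporter, was called with EPO (0.63 ± 0.19, adjusted p = 0.0349) and with saline (0.62 ± 0.19, adjusted p = 0.0464). The median of the 3 was 0.59 with EPO and 0.60 with saline. The list's mean deviation at 6 h was -0.17 to 0.70 in EPO rats, 0.05 to 0.14 in saline rats and -0.67 to -0.12 in shams. Of 11 cortical projection neuron genes 3 were called lower with EPO and 2 with saline, against 9.59% and 6.26% of all tested probes. The lowest in both was the transcription factor Neurod6, at -1.05 ± 0.16 and -0.81 ± 0.16 (adjusted p = 0.000707 and 0.00554). The median of the 11 was -0.13 with EPO and -0.11 with saline, against -0.01 and -0.09 over all genes. Of the 11, 4 were higher with EPO and 3 with saline. That list's mean deviation at 6 h was -0.19 to -0.14 in EPO rats, -0.27 to -0.14 in saline rats and 0.01 to 0.07 in shams. Of 10 oligodendrocyte genes 2 were called higher with EPO, among them the myelin enzyme Cnp (0.36 ± 0.11, adjusted p = 0.0337), and 0 with saline, where 10 of 10 differences were positive (median 0.24). Their mean deviation was -0.01 to 0.17 in EPO rats, -0.09 to 0.19 in saline rats and -0.23 to -0.00 in shams. Of 10 interneuron genes Npy rose in both comparisons (0.36 and 0.37) and Pvalb fell with EPO (-0.72 ± 0.13). Of 3 thalamic and 4 choroid plexus genes 0 were called in either comparison. Their medians were 0.24 (thalamus) and 0.51 (choroid plexus) with EPO, and 0.12 and 0.56 with saline. The thalamic mean deviation at 6 h was -0.12 to 0.47 in EPO rats, -0.07 to 0.02 in saline rats and -0.46 to 0.11 in shams. That of choroid plexus varied most between animals, from -1.46 to 0.64 in EPO rats, -1.92 to 1.35 in saline rats and -1.91 to 1.12 in shams. The tested genes of these 6 cell lists were well above background on 18 arrays, which the filter on dim probes favours. Kl (choroid plexus) and Lef1 (thalamus) did not pass that filter in any group and were not tested. The part of other cells, or of the tissue taken, in the rise of the striatal markers was not tested.

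Genes that act with the markers were read from lists of their pathways. Of 43 dopamine, adenosine and cyclic AMP signalling genes 9 were called higher and 3 lower with EPO at 6 h, and 5 higher and 1 lower with saline (medians 0.08 and 0.05). This list shares genes with the other striatum-enriched genes, among them Gnal and Pde10a, which were called with EPO and are counted in both. Of all tested probes 6.53% were called higher and 9.59% lower with EPO, and 4.79% and 6.26% with saline. Rgs2, a G-protein regulator that is induced by activity, rose by 1.43 ± 0.13 with EPO and 1.10 ± 0.13 with saline (adjusted p = 1.01e-05 and 0.000135). Crem, a factor that binds cyclic AMP response elements, rose by 1.03 ± 0.10 and 0.80 ± 0.10 (adjusted p = 2.99e-05 and 0.000349). Adora2b, the low-affinity adenosine receptor, rose by 0.32 ± 0.08 and 0.38 ± 0.08 (adjusted p = 0.0198 and 0.0118). Of 20 opioid and tachykinin receptor and peptide processing genes 4 were called higher and 3 lower with EPO, and 2 higher and 3 lower with saline. The tachykinin receptor Tacr2 fell by 0.51 ± 0.08 with EPO and 0.42 ± 0.08 with saline, and the nociceptin receptor Oprl1 fell by 0.64 ± 0.10 and 0.52 ± 0.10 (adjusted p between 0.000897 and 0.00649). Ctsl, a protease that can act on enkephalin precursors, rose by 0.25 and 0.31. Genes of both lists were called in both directions.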

How the data were processed

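RNA was measured on 1-colour Agilent arrays. The deposited files hold per-spot processed intensity, background-subtracted by Agilent Feature Extraction 9.1.1.1, per the file headers. The authors' deposited table holds log2 signal per probe, which equals the mean log2 intensity without scaling. Control and outlier spots were left out, spots of a probe were averaged on the log2 scale, and each array's 75th percentile over 43379 non-control spots was subtracted. A probe was tested (28634 in all) if some group had it well above background on its 3 arrays. limma 3.58.1 in R 4.3.3 fitted group means over 18 arrays, with two-sided moderated tests at an adjusted p of 0.05, and 12 residual degrees of freedom. The procedure was tested on simulated data. Named genes were the 8 members with every probe, up to 4 other striatum-enriched genes and up to 3 genes of each other list of smallest p at 6 h, and the genes most like the members. The members and lists were chosen with earlier results of these data known. The number of arrays limits the precision. Nothing in the labels names a litter or day shared by animals.

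Same-number replicates were checked for pairing across all probes. For EPO and saline at 2 h, every pair correlated above 0.1 (0.887, 0.654 and 0.635). In both groups replicate 1 was a steep array, and in no other comparison did every pair pass. Python 3.11.15 with matplotlib 3.10.9 drew the plots, and RefSeq (GRCr8) gave the promoters. Alternatives changed 1 choice at a time, apart from the run without scaling, which used the deposited values and so also kept outlier spots. The run with another background correction also began from the mean signal in place of the processed signal.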

Additional observations from a re-analysis of the deposited data

How the results depend on the processing

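Over 36 alternatives (18 of them leaving out 1 array each), 8 of 8 markers were higher than sham at 6 h, with EPO and with saline. The number of called probes was less stable. For saline minus sham at 6 h, 3 in the analysis reported, it was 0 without scaling, with the array median and with only the compared groups' arrays. It was 1 without the filter and without the arrays of title numbers apart (replicate 1 of EPO at 2 h and of sham at 6 h). With probes above background on all arrays it was 5, with slide as a fixed block 6 and with slide as a random block 7. With the spike-in slope class as a block it was 7, with array weights 8 and at a threshold of 0.1 also 8. No count is given for saline without the steep arrays, since only replicate 2 of the saline rats at 6 h is left there. For EPO minus sham at 6 h, 7 in the analysis reported, it was 0 with the array median, 1 without scaling and 1 with only the compared groups' arrays, 2 without the steep arrays and 2 without the arrays of title numbers apart. Leaving out 1 array gave 0 to 7 calls with saline and 2 to 7 with EPO at 6 h, and 0 to 1 with EPO at 2 h (1 without replicate 3 of the 2 h shams). The replicate block gave 3 calls for saline and 6 for EPO against sham at 6 h, and changed no call between EPO and saline (0 at both times). Runs that left out arrays also had fewer arrays, and the cause of these shifts was not tested.

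Signs turned in differences that were not called. In saline minus sham at 2 h, quantile normalization gave Drd1 0.18, scaling by the array median gave Drd1 0.19 and the slope class as a block gave Drd1 0.27. The slope as a covariate gave Drd1 0.56 and leaving out the steep arrays gave Drd1 0.37. Leaving out 1 array, Drd1 ran from -0.33 to 0.37. In EPO minus saline at 2 h, quantile normalization gave Ppp1r1b -0.000721, scaling by the array median gave Drd1 0.020 and Rgs9 0.011 and leaving out the steep arrays gave Adora2a -0.14 and Ppp1r1b -0.15. Slide as a fixed block gave Drd1 0.15, Drd2 0.0051, Adora2a -0.029, Ppp1r1b -0.046 and Penk -0.020, slide as a random block gave Drd1 0.078 and array weights gave Drd1 0.066, Adora2a -0.0037 and Ppp1r1b -0.024. Leaving out the arrays of title numbers apart gave Drd1 0.35, Drd2 0.028, Ppp1r1b -0.036 and Tac1 0.014 and no scaling gave Ppp1r1b -0.021. Leaving out 1 array, Drd1 ran from -0.45 to 0.35, Drd2 ran from -0.23 to 0.063, Adora2a ran from -0.14 to 0.18, Ppp1r1b ran from -0.10 to 0.089, Penk ran from -0.044 to 0.24, Tac1 ran from -0.31 to 0.014 and Rgs9 ran from -0.14 to 0.086. In EPO minus saline at 6 h, quantile normalization gave Drd2 -0.046, scaling by the array median gave Drd2 -0.22, Adora2a -0.27, Ppp1r1b -0.27, Penk -0.023, Pdyn -0.29, Tac1 -0.13 and Rgs9 -0.27 and the slope class as a block gave Drd2 -0.00998, Adora2a -0.035 and Pdyn -0.023. The slope as a covariate gave Pdyn -0.00810, array weights gave Ppp1r1b -0.027 and no scaling gave Adora2a -0.018, Ppp1r1b -0.020, Pdyn -0.041 and Rgs9 -0.015. Leaving out 1 array, Drd2 ran from -0.083 to 0.26, Adora2a ran from -0.081 to 0.14, Ppp1r1b ran from -0.077 to 0.12, Pdyn ran from -0.064 to 0.11 and Rgs9 ran from -0.055 to 0.17.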
